A study of Mus musculus with 16 samples.

Results

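The livers of 8 mice on the normal diet, 4 of them given a krill extract, were compared out of 16 mice in all. Members were taken by their feeding label alone: the N group (mice 4, 5, 7 and 8) ate a normal diet with 10% fat (D12450B), and the NW group (mice 11, 12, 15 and 20) ate that diet with WEPAK added at 1%, an aqueous extract of Pacific krill. All were male C57BL/6J mice labelled 4 weeks old, fed for 18 weeks, and the labels name no mutation or transgene. The remaining mice, of the same strain, sex and labelled age, ate a high-fat diet with 45% fat (D12451) for the same time, either plain (HF, 4 mice) or with 1% WEPAK (HFW, 4 mice). They serve here only to set the same extract on another diet beside it. Each library came from 1 mouse, so the spread within a group is that between mice. The labels do not say at which hour of the day the livers were taken, or whether the mice were fasted.

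The liver turns dietary sugar, fat and protein into the lipids, glucose and plasma proteins that other organs receive, and many of its enzymes are set at the level of the transcript. Hepatocytes make up most of its mass, and they synthesise fatty acids, burn them in mitochondria and peroxisomes, build lipoproteins, break down sulfur amino acids and secrete carriers of growth factors. Water-soluble extracts of crustaceans in general hold free amino acids, peptides and minerals, and the labels do not give the make-up of WEPAK.

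Transcripts were counted by SuperSAGE, in which the restriction enzyme NlaIII cuts cDNA at CATG and another enzyme, EcoP15I, releases a short tag beside the cut nearest the poly(A) tail. A gene's count is therefore a count of tags from 1 place near its 3′ end, free of transcript length. Counts are given as CPM, tags per 1000000 tags of the library, its size scaled by the TMM factor that edgeR gives it. The N libraries held 75963 ± 16768 tags in named genes (SD, n = 4) and the NW libraries 74198 ± 30660, the latter from 57642 to 120143. At the 8 depths 1 tag was worth 8.32 to 17.3 CPM before scaling. Thinned to 56655 tags each, N libraries showed 4058 ± 98.1 genes and NW libraries 4054 ± 93.4. The 10 most abundant genes of a library held 30.5 ± 3.14% of its tags in N and 34.8 ± 1.90% in NW. N mouse 8, at 35.0%, lay within the NW range of 32.5% to 37.1%. That share was 28.9 ± 1.68% in HF and 32.8 ± 1.87% in HFW, and the cause was not tested. All 26 hepatocyte markers of the list had tags, with a summed level from 71625 to 106857 CPM in N and from 108460 to 124315 CPM in NW. Most of that sum was 1 gene, Apoa2, which did not pass in NW minus N (adjusted p = 0.274 by edgeR). Of 20826 gene symbols 1046 had enough tags to be tested. The hepatocyte marker Apoa1 was not among them, with 6 tags in N and 25 in NW. Of 77 cytosolic ribosomal protein genes 50 had no tags in the N and NW libraries. A low or absent count therefore need not mean low expression, and its cause was not tested.

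N mouse 4 stood apart from the other control mice. On the first principal component of the 8 libraries, which held 49.7% of the variance of the 500 most variable genes, it scored -22.1, N mice 5 and 7 scored -9.08 and -5.78, and N mouse 8 scored -0.07. The NW mice lay together between 7.23 and 12.1. All NW mice scored above all N mice, and N mouse 8 was the control nearest to them. On the first component of all 16 libraries, with 44.5% of the variance, N mouse 4 scored -16.5. The HF mice scored from -15.6 to -8.61 there and the other N mice from -4.16 to 4.90. Why N mouse 4 lay with the HF mice was not tested. Calls lost without N mouse 4 are named below, with the log2 fold change without it where that moved by over 1.5-fold.

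**Figure D1:**
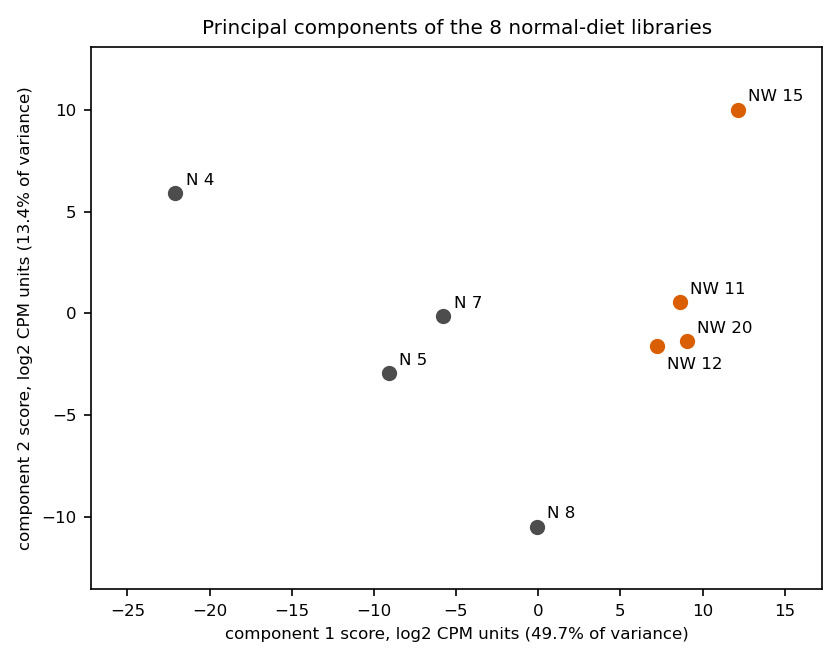
Scores of the 8 normal-diet libraries on the first 2 principal components of log2 CPM (500 most variable genes), N in grey and NW in orange, each point 1 mouse. The 4 NW mice lie between 7.23 and 12.1 on component 1, N mouse 4 lies at -22.1 and N mouse 8 at -0.07.

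The tags behind the main results show what was counted. The table gives counts per transcript and not the tags, so the sequences below are predictions: the 26 bases that start at the last NlaIII site of the GENCODE M21 transcript, read from the mouse genome GRCm38, for genes of the results that carry the comparison. Capitals mark the NlaIII site, and none of these 11 tags was found at the last site of another gene's transcript.
Bsg: CATGctctgacttactgttggagggg
Igfals: CATGgctgctcacttcctggatgcag
Lcat: CATGgtcttcagcaataagacactgg
Kdelr1: CATGtttttgtacagaatttgatggc
Sephs2: CATGaaaaattatttggaccaatata
Acly: CATGtttgctttaaataaactagata
Acadvl: CATGtgccttctctgatgccaaaacc
Dus1l: CATGgattgctttttaagaccaaatt
Cbs: CATGaccctgcttagcccactcctca
Kdm4a: CATGctggggcgctcagcttccccga
Tsku: CATGggtggggaccctaggtccggtg
The Bsg tag lies at chr10:79711900-79711925 on the plus strand, in the 3′ UTR in exon 7 of 7, and the Igfals tag at chr17:24881862-24881887 on the plus strand, in the 3′ UTR in exon 2 of 2. The Lcat tag lies at chr8:105939655-105939680 on the minus strand, in the coding sequence in exon 6 of 6. The Kdelr1 tag (chr7:45883662-45883687, plus strand, exon 5 of 5) and the Sephs2 tag (chr7:127272199-127272224, minus strand, exon 1 of 1) both lie in the 3′ UTR. The same holds for Acly (chr11:100476363-100476388, minus strand, exon 28 of 28), Acadvl (chr11:70010244-70010269, minus strand, exon 20 of 20), Cbs (chr17:31612730-31612755, minus strand, exon 16 of 16) and Tsku (chr7:98351336-98351361, minus strand, exon 2 of 2). The tags of Dus1l (chr11:120789532-120789557, minus strand, exon 14 of 14) and Kdm4a (chr4:118142204-118142229, minus strand, exon 19 of 19) lie in coding sequence. The tags ranged from Sephs2 and Acly, with 18.2% G and C after the NlaIII site, to Kdm4a and Tsku, with 72.7%. Over all genes past the threshold the median was 40.9% for those higher in NW and 45.5% for those lower, against 45.5% over the 977 tested genes with a predicted tag.

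With the extract on the normal diet 115 genes changed: 38 were higher in NW than in N and 77 were lower (edgeR quasi-likelihood test, adjusted by Benjamini-Hochberg, threshold 0.05). That is 11.0% of the 1046 genes tested, 3.63% higher and 7.36% lower. The changes of these 115 genes had a median of 2.43-fold and a range from 1.74-fold to 8.00-fold, while the median log2 fold change over all tested genes was -0.03. In simulations the fit recovered 36.4% of 2-fold changes, so genes past the threshold are selected for large values. In 114 of the 115 genes all 4 NW mice lay on the same side of the N mean, and in 1 gene 3 did. The genes were chosen by a test on these same values, so that count does not stand for itself. The 4 NW values and the 4 N values did not overlap in 32 of the higher and 53 of the lower genes past the threshold. Over all tested genes 6.6% did not overlap upward and 8.89% downward, 15.5% together.

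The control group set much of this count. N mouse 4 was the highest N mouse in 59 of the 77 genes that fell and the lowest in 26 of the 38 that rose. Without it 31 genes passed, 6 higher and 25 lower, and 29 of the 115 were among them. NW mouse 15 counted on the other side: without it 47 genes passed and 45 of the 115 remained. Without N mouse 8 the number rose to 178, 89 in each direction. Below, log2 fold changes are NW minus N, and values per mouse follow the order N mice 4, 5, 7 and 8, then NW mice 11, 12, 15 and 20.

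**Figure D2:**
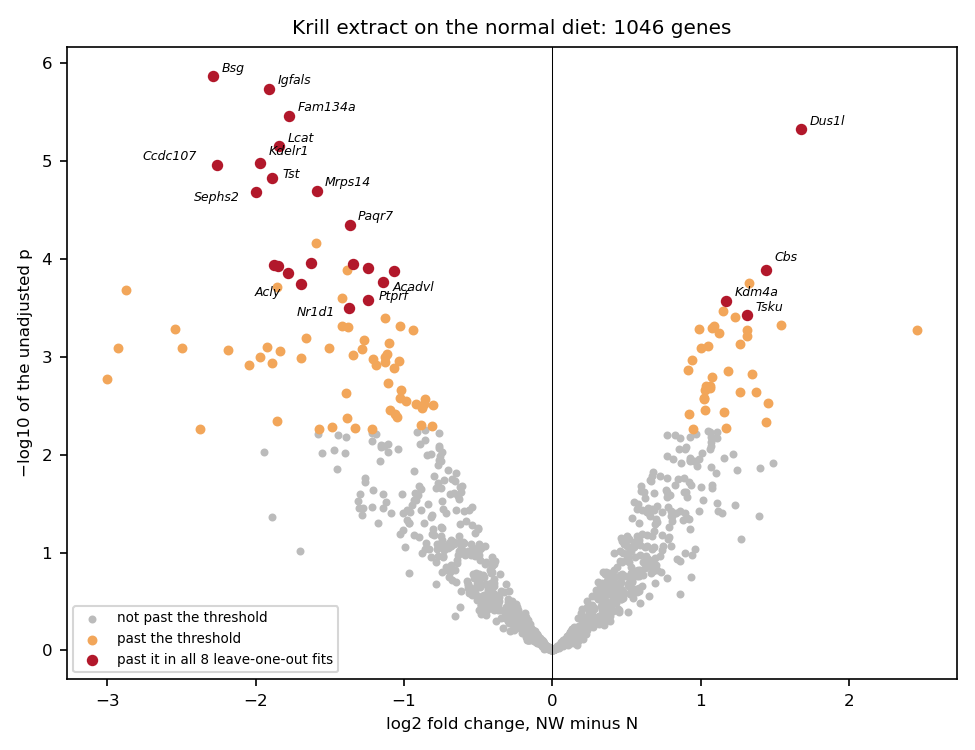
Each point is 1 of the 1046 tested genes, with the log2 fold change (NW minus N) on the x axis and −log10 of the unadjusted edgeR p on the y axis. Orange and red points are the 115 genes past the threshold, 77 to the left and 38 to the right, and the 25 red ones passed with each of the 8 mice left out in turn, 21 of them lower.

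A core of 25 genes passed with any 1 of the 8 mice left out, 21 lower in NW and 4 higher. With both N mice 4 and 8 left out 20 of them still passed, and by edgeR these did not: Acadvl (-1.04, adjusted p = 0.0647), Apol7a (-0.98, adjusted p = 0.051), Cbs (1.10, adjusted p = 0.0977), Cmtm4 (-1.65, adjusted p = 0.0576) and Kdm4a (1.17, adjusted p = 0.0547). Without a filter on low counts Acadvl missed the threshold too (adjusted p = 0.063, edgeR), the only core gene that did. Among the strongest decreases, 3 were in a gene of the hepatocyte surface and in genes of plasma proteins. Bsg encodes basigin, the membrane glycoprotein that carries lactate transporters to the cell surface. It had 4388, 1383, 1032 and 1179 CPM in N and 444, 544, 243 and 365 CPM in NW. N mouse 4 lay far above the other controls, and even the lowest N mouse was above the highest NW mouse. The log2 fold change was -2.28 (SE 0.37), adjusted p = 0.000951 by edgeR, and without N mouse 4 it was -1.56 (adjusted p = 0.00403). Igfals, the acid-labile subunit, which keeps insulin-like growth factors in the blood, had 3332, 1392, 1178 and 1096 CPM in N and 546, 569, 356 and 365 CPM in NW. The groups did not overlap, and its log2 fold change was -1.91 (SE 0.33) (adjusted p = 0.000951 by edgeR). Lcat, the plasma enzyme that esterifies the cholesterol of high-density lipoprotein, had 7482, 2527, 3097 and 2276 CPM in N and 1297, 1224, 1236 and 521 CPM in NW. Each N mouse was above each NW mouse, NW mouse 20 was the lowest, and the log2 fold change was -1.84 (SE 0.34) (adjusted p = 0.00148 by edgeR). Without N mouse 4 it was -1.40 for Igfals (adjusted p = 0.00835) and -1.30 for Lcat (adjusted p = 0.0113).

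Genes of the endoplasmic reticulum and Golgi were in the core. Kdelr1, the receptor that returns escaped chaperones from the Golgi, had 3243, 1192, 1125 and 747 CPM in N and 461, 416, 393 and 330.3 CPM in NW, with no overlap. It fell by a log2 fold change of -1.97 (SE 0.37) (adjusted p = 0.00162 by edgeR) and without N mouse 4 of -1.36 (adjusted p = 0.012). Fam134a, now named Retreg2 and related to the receptors that mark the reticulum for autophagy, was the most abundant gene of the core. It had 20097, 7609, 7345 and 7591 CPM in N and 3361, 3314, 1929 and 3841 CPM in NW. N mice 5, 7 and 8 were close to each other, N mouse 4 was well above them, and the log2 fold change went from -1.77 (SE 0.32) with all mice to -1.28 without N mouse 4 (adjusted p = 0.00835 by edgeR).

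Sulfur and selenium enzymes were also in the core. Tst, the mitochondrial thiosulfate sulfurtransferase that detoxifies cyanide and sulfide, had 1636, 1087, 728 and 747 CPM in N and 171, 374, 262 and 295 CPM in NW. Its log2 fold change was -1.89 (SE 0.37) (adjusted p = 0.00195 by edgeR), with no overlap between the groups. Sephs2, which makes the selenophosphate needed for every selenoprotein, had 1726, 1011, 1098 and 764 CPM in N and 222, 374, 356 and 174 CPM in NW. All N mice were above all NW mice, and the log2 fold change was -2.00 (SE 0.39) (adjusted p = 0.00218 by edgeR). Leaving out N mouse 4 moved these values little, to -1.61 for Tst and -1.74 for Sephs2.

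Fat metabolism contributed 2 core genes. Acly, which makes cytosolic acetyl-CoA for fatty acid and cholesterol synthesis, had 461, 572, 238 and 149 CPM in N and 102, 110.5, 93.6 and 139 CPM in NW. N mice 4 and 5 were high, N mouse 8 was close to the NW group, and the log2 fold change was -1.70 (SE 0.40) (adjusted p = 0.00783 by edgeR). Acadvl, the very-long-chain acyl-CoA dehydrogenase that opens mitochondrial fatty acid oxidation, had 639.6, 439, 543 and 532 CPM in N and 239, 280.4, 225 and 209 CPM in NW. Here the N mice were close together and the groups stood apart, with a log2 fold change of -1.14 (SE 0.27) (adjusted p = 0.00783 by edgeR). Acly, of fat synthesis, and Acadvl, of fat oxidation, thus fell in the same livers. Other genes of mitochondrial fat oxidation rose, as given below.

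The other genes of the core that fell act in signalling, mitochondria and lipid transfer. Nr1d1, the clock repressor REV-ERB alpha, had 372, 439, 251 and 266 CPM in N and 188, 127, 131 and 69.5 CPM in NW (log2 fold change -1.37 (SE 0.34)). S1pr1, a receptor for the lipid sphingosine phosphate, had 595, 486, 199 and 183 CPM in N and 119, 85.0, 74.9 and 156 CPM in NW (-1.78, SE 0.41). Ptprf, a receptor tyrosine phosphatase known to act on the insulin receptor, had 609.9, 849, 873 and 382 CPM in N and 205, 382, 318 and 226 CPM in NW (-1.24, SE 0.30), and N mouse 8 lay level with NW mouse 12. Paqr7, a membrane receptor for progestins, had 565, 439, 397 and 515 CPM in N and 171, 187, 169 and 209 CPM in NW (-1.37, SE 0.29), with narrow groups on both sides. Mrps14, a protein of the mitochondrial ribosome, had 1413, 829.6, 463 and 581 CPM in N and 290.0, 357, 206 and 209 CPM in NW (-1.59, SE 0.32), and Tbrg4, which acts on mitochondrial RNA, had a log2 fold change of -1.85 (SE 0.42). Abat, the transaminase that degrades the amino acid GABA, had 2916, 2222, 1773 and 1129.5 CPM in N and 785, 1164, 468 and 695 CPM in NW (-1.35, SE 0.31), and N mouse 8 lay within the range of the NW mice. The log2 fold changes of the last of the 21 were -2.26 for Ccdc107, -1.88 for Cmtm4, -1.62 for Nipsnap3b, -1.24 for Tex2, a lipid transfer protein of the reticulum, and -1.07 for Apol7a, a relative of apolipoprotein L.

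The 4 core genes that rose have separate functions. Dus1l, an enzyme that makes dihydrouridine in transfer RNA, had 149, 267, 291 and 349 CPM in N and 836, 858, 674 and 1008 CPM in NW. Each NW mouse lay well above each N mouse, and the log2 fold change was 1.68 (SE 0.31) (adjusted p = 0.00123 by edgeR). Cbs, cystathionine beta-synthase, which commits homocysteine to cysteine synthesis, had 223, 629, 331 and 349 CPM in N and 1109, 782, 1198 and 1199 CPM in NW. N mouse 5 was the highest control and still below the NW group, and the log2 fold change was 1.44 (SE 0.33) (adjusted p = 0.00694 by edgeR). Kdm4a, a histone lysine demethylase, had 312, 324, 489.7 and 532 CPM in N and 1024, 679.7, 974 and 1060.3 CPM in NW (1.17, SE 0.29). Tsku, a protein secreted by the liver, had 179, 153, 185 and 282 CPM in N and 580.1, 459, 487 and 435 CPM in NW (1.31, SE 0.33). Neither of these groups overlapped.

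Other tools and filters moved further calls of the genes described below. By the DESeq2 Wald test Ephx1 (adjusted p = 0.0591) and Sqrdl (adjusted p = 0.0606) were lost and Csda had no adjusted p. With limma-voom Dnajc15, Ephx1, Glrx5, Ldha, Reep6, Sqrdl, St3gal5 and Zbtb16 were lost (adjusted p from 0.0543 to 0.107). Without a filter edgeR lost Acads, Ak3, Anapc5, Apoc1, Apof, Ces1c, Ctbs, Cyp2d22, Edc4, Eef1b2, Ephx1, Gclc, Glrx5, Gpx1, Grn, Herpud1, Igfbp4, Ldha, Paqr9, Pqlc1, Pqlc2, Ptdss1, Reep6, Sec61a1, Sgpp1, Slc39a14, Slc39a7, Sqrdl, St3gal5, Tdo2, Tram2 and Trfr2 (adjusted p from 0.0509 to 0.387). In the other direction Cdo1, Cyp2d10, Fbp1, Slc2a2 and Thrsp passed with DESeq2 (adjusted p from 0.015 to 0.0497), Cdo1, Cyp2d10 and Pck1 with limma-voom (adjusted p from 0.0414 to 0.0441), and Cyp2c29 (adjusted p = 0.0278) and Thrsp (adjusted p = 0.00204) with edgeR without a filter.

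**Figure D3:**
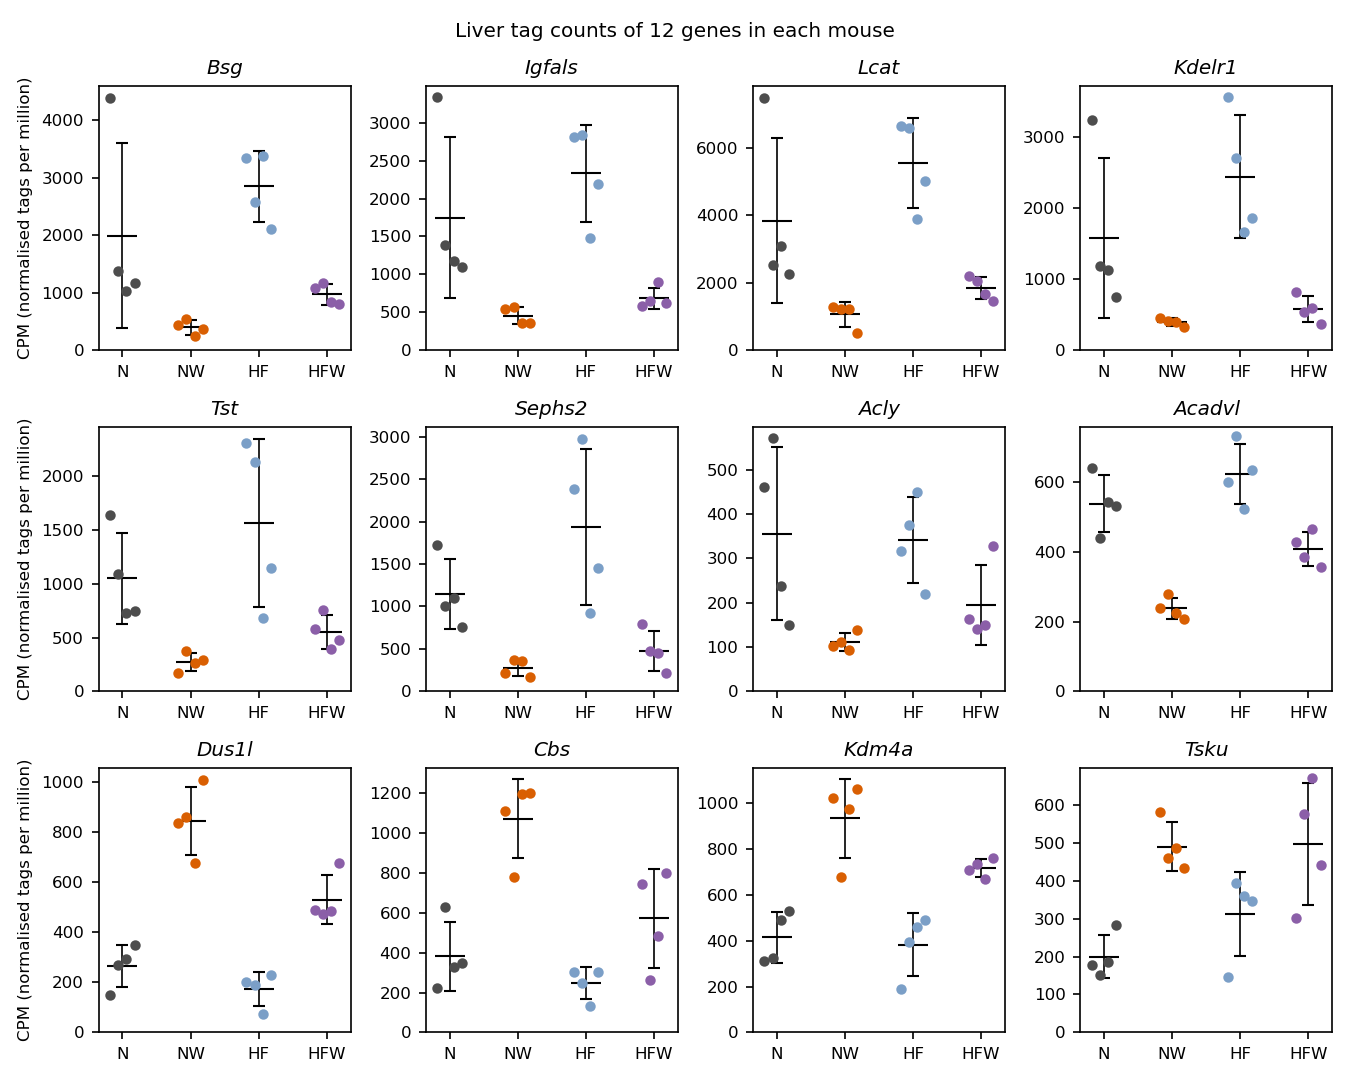
CPM of 12 core genes in each mouse (points), with the group mean (bar) and SD (whisker, n = 4), for N, NW, HF and HFW; each y axis starts at 0. In Bsg, Igfals, Lcat and Kdelr1 N mouse 4 is the highest of the 4 controls and all NW mice lie below all N mice, while Dus1l, Cbs, Kdm4a and Tsku are higher in NW.

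The count of each gene list below reads against the shares over all tested genes, 3.63% higher and 7.36% lower (11.0% together), and 1 call among 12 or 13 genes is near that background. Genes of fatty acid and triglyceride synthesis gave 3 lower and 0 higher of 9 tested, with a median log2 fold change of 0.12. Besides Acly, Fitm1, a lipid droplet protein, had 3525, 820.0, 1443 and 997 CPM in N and 665, 408, 506 and 678 CPM in NW. The groups did not overlap, and its log2 fold change of -1.59 (SE 0.34) lost its call by edgeR without N mouse 4 (-0.96, then adjusted p = 0.0508). Fads1, a desaturase of polyunsaturated fatty acids, had 2856, 4501, 1548 and 1113 CPM in N and 785, 1147, 955 and 1286 CPM in NW. N mouse 5 was the highest and N mouse 8 lay inside the NW range, and the log2 fold change of -1.27 (SE 0.33) was lost by edgeR without N mouse 4 or 5 or NW mouse 11 or 15 (then adjusted p from 0.052 to 0.113). Srebf1, the transcription factor that drives this pathway, had 1964, 3252, 1429 and 1029.9 CPM in N and 444, 416, 412 and 1982 CPM in NW. Its log2 fold change of -1.26 (SE 0.49) did not pass (adjusted p = 0.101 by edgeR), NW mouse 20 lay with the controls, and without that mouse it was -2.11 (adjusted p = 0.00143). Srebf1 also passed with DESeq2 (adjusted p = 0.0462), limma-voom (adjusted p = 0.0429) and edgeR without a filter (adjusted p = 0.0205). Thrsp, a spot protein tied to fat synthesis, had 1.49 (SE 0.53) in the opposite direction and did not pass (adjusted p = 0.0734 by edgeR), but did without N mouse 8 (1.91, adjusted p = 0.0377) or NW mouse 11 (1.77, adjusted p = 0.028). Dgat2, which closes triglyceride synthesis and is among the most abundant transcripts here, had 15121 ± 7295 CPM in N and 23501 ± 5663 CPM in NW (SD, n = 4). It did not pass (0.64, adjusted p = 0.148 by edgeR) except without N mouse 8 (1.05, adjusted p = 0.0134). Of the genes of cholesterol synthesis and uptake only 2 were tested and 0 passed.

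Mitochondrial fatty acid oxidation gave 3 higher and 1 lower of 12 tested, with a median of -0.10. Acads, Acaa2 and Etfa rose, opposite to Acadvl. Acads, the short-chain acyl-CoA dehydrogenase, had 179, 133, 212 and 249 CPM in N and 307, 280.4, 730.3 and 556 CPM in NW. Acaa2, the mitochondrial thiolase, had 149, 209.8, 304 and 432 CPM in N and 597, 561, 712 and 678 CPM in NW. Etfa, which takes electrons from the acyl-CoA dehydrogenases, had 2797, 3909.5, 6644 and 6711 CPM in N and 12779, 7562, 12134 and 8935 CPM in NW. In all 3 every NW mouse was above every N mouse, and N mouse 8 was the highest N mouse in each. The log2 fold changes were 1.26 (SE 0.34) for Acads, 1.23 (SE 0.31) for Acaa2 and 1.05 (SE 0.28) for Etfa. The call was lost by edgeR without N mouse 4 or 5 or NW mouse 15 (then adjusted p from 0.0546 to 0.0993) for Acads, without N mouse 4 (then adjusted p = 0.0611) for Acaa2 and without N mouse 4 or NW mouse 11 or 15 (then adjusted p from 0.0544 to 0.0769) for Etfa. Hadh, another enzyme of the same spiral, had 907, 305, 199 and 299 CPM in N and 119, 110.5, 318 and 226 CPM in NW. Its log2 fold change of -1.19 (SE 0.40) narrowly missed the threshold (adjusted p = 0.0518 by edgeR), which it passed without N mouse 5, 7 or 8 or NW mouse 15 (then adjusted p from 0.0294 to 0.0479). Without N mouse 4, the 1 control far above the others, Hadh had -0.55 (adjusted p = 0.419 by edgeR).

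Peroxisomal oxidation and omega-hydroxylation gave 1 higher of 12, with a median of 0.15. Acox2, the branched-chain and bile acid oxidase, had 119, 133, 172 and 349 CPM in N and 648, 348, 393 and 504 CPM in NW, where N mouse 8 and NW mouse 12 were level. Its log2 fold change was 1.31 (SE 0.34), lost by edgeR without N mouse 4 or NW mouse 11 (then adjusted p from 0.0527 to 0.0634). It is also the 1 gene past the threshold among 7 of bile acid synthesis and transport. Acaa1a, the peroxisomal thiolase, had 3549 ± 1490.0 CPM in N and 6056 ± 1756 CPM in NW (SD, n = 4) and a log2 fold change of 0.77 (SE 0.31) that did not pass (adjusted p = 0.0953 by edgeR) but did without N mouse 8 (1.07, adjusted p = 0.0231). Slc10a1, the bile acid importer of the hepatocyte, had 970.1 ± 123 CPM in N and 606 ± 197 CPM in NW and did not pass (-0.65, adjusted p = 0.147 by edgeR).

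In glycolysis, gluconeogenesis and glycogen 1 of 13 tested genes was lower and 0 higher, with a median of -0.02. Ldha, lactate dehydrogenase A, had 625, 286, 582 and 880.4 CPM in N and 307, 221, 262 and 313 CPM in NW, and N mouse 5 lay within the NW range. Its log2 fold change of -1.10 (SE 0.35) was lost by edgeR without N mouse 4, 7 or 8 or NW mouse 11, 12, 15 or 20 (then adjusted p from 0.059 to 0.13). Another 4 genes, of glucose output or entry, had positive values without passing: 0.89 (SE 0.32) for Pck1, the committing enzyme of gluconeogenesis (adjusted p = 0.0614), 0.78 (SE 0.28) for Fbp1 (adjusted p = 0.0665), 0.86 (SE 0.30) for the glucose transporter Slc2a2 (adjusted p = 0.053) and 1.08 (SE 0.37) for Pgk1 (adjusted p = 0.053), all by edgeR. Without N mouse 8 the adjusted p by edgeR was under the threshold for Pck1 (1.32, adjusted p = 0.00617), Slc2a2 (1.17, adjusted p = 0.011) and Pgk1 (1.31, adjusted p = 0.0258). Slc2a2 passed too without NW mouse 12 (1.12, adjusted p = 0.0278), and Fbp1 did without N mouse 5 (0.99, adjusted p = 0.0403).

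Lipoproteins and their processing gave 2 lower and 1 higher of 14 tested, with a median of 0.31. Beside Lcat, Apoc1, an apolipoprotein that inhibits lipid clearance, had 2573, 1812, 1747 and 1262 CPM in N and 904, 1045, 861 and 1043 CPM in NW (-0.94, SE 0.24). Apof, the lipid transfer inhibitor, rose and had 223, 477, 278 and 515 CPM in N and 785, 731, 449 and 1078 CPM in NW (1.02, SE 0.31), with NW mouse 15 below N mice 5 and 8. By edgeR the call of Apoc1 was lost without N mouse 4 or NW mouse 15 (then adjusted p from 0.0544 to 0.0769), and that of Apof without N mouse 4 or 7 or NW mouse 11 or 20 (then adjusted p from 0.0627 to 0.135). The structural apolipoprotein Apoa2 had 50153 ± 11119 CPM in N and 66902 ± 9424 CPM in NW and did not pass (0.42, adjusted p = 0.274 by edgeR).

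Sulfur amino acid and one-carbon metabolism gave 1 higher and 3 lower of 15 tested, with a median of 0.46. Cbs rose, and 3 genes of sulfide handling and glutathione synthesis fell. Besides Tst, Sqrdl (now Sqor), the mitochondrial sulfide oxidase, had 253, 238, 318 and 332 CPM in N and 136, 178, 112 and 122 CPM in NW (-0.99, SE 0.31). Gclc, the catalytic subunit of the first enzyme of glutathione synthesis, had 4998, 5788, 3891 and 3538 CPM in N and 3309.9, 2524, 2584 and 2034 CPM in NW (-0.80, SE 0.25). Neither gene's groups overlapped, yet by edgeR Sqrdl was lost without N mouse 4, 7 or 8 or NW mouse 11, 15 or 20 (then adjusted p from 0.0748 to 0.117) and Gclc without N mouse 4, 5 or 7 or NW mouse 12, 15 or 20 (then adjusted p from 0.0563 to 0.152). Cdo1, which oxidises cysteine toward taurine, was far more abundant, with 10636, 19958, 13896 and 23355 CPM in N and 25439, 35125, 36457 and 23171 CPM in NW. N mouse 8 lay within the NW range, and its log2 fold change of 0.83 (SE 0.28) missed the threshold (adjusted p = 0.0521 by edgeR), which it passed without N mouse 8 (1.09, adjusted p = 0.0123) or NW mouse 20 (1.00, adjusted p = 0.0379). Mat1a, which makes S-adenosylmethionine, had 0.72 (SE 0.29) (adjusted p = 0.0929 by edgeR) and passed without NW mouse 20 (1.02, adjusted p = 0.0247).

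Of other amino acid catabolism 1 of 12 tested genes was higher, with a median of 0.15. Tdo2, which opens tryptophan breakdown, had 74.4, 66.7, 132 and 116 CPM in N and 290.0, 238, 262 and 191 CPM in NW (1.34, SE 0.39), without overlap, and was lost by edgeR without N mouse 4 or 5 or NW mouse 11 or 15 (then adjusted p from 0.0592 to 0.0905). In the urea cycle and ammonia handling 0 of 6 passed, among them Cps1, its entry enzyme (0.59, adjusted p = 0.25 by edgeR).

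Selenium metabolism and selenoproteins gave 2 lower of 4 tested, with a median of -0.58. Sephs2 is described above, and Gpx1, the cytosolic glutathione peroxidase, had 2752, 3900.0, 3084 and 3289 CPM in N and 1928, 2099, 1311 and 1512 CPM in NW (-0.92, SE 0.29). Its groups did not overlap, but with fewer mice the call by edgeR was absent without N mouse 4, 5, 7 or 8 or NW mouse 11, 12, 15 or 20 (then adjusted p from 0.0566 to 0.137). The peroxidase of lipid peroxides, Gpx4, had 39763 ± 6425 CPM in N and 43239 ± 7534 CPM in NW (SD, n = 4) and did not pass (0.12, adjusted p = 0.825 by edgeR). Among 7 other antioxidant and glutathione genes 1 was lower, Glrx5, a glutaredoxin of mitochondrial iron-sulfur cluster assembly, with 1116, 553, 596 and 332 CPM in N and 239, 314, 337 and 382 CPM in NW (-1.03, SE 0.32), lost by edgeR without N mouse 4 or 7 or NW mouse 11, 12, 15 or 20 (then adjusted p from 0.0583 to 0.228). Sod2, the mitochondrial superoxide dismutase, had 1026, 458, 159 and 116 CPM in N and 188, 127, 112 and 17.4 CPM in NW. N mice 4 and 5 differed widely from each other, and the log2 fold change of -1.95 (SE 0.66) did not pass (adjusted p = 0.0638 by edgeR). It was -1.19 without N mouse 4 (adjusted p = 0.247), and it passed without N mouse 7 (-2.16, adjusted p = 0.0382) or N mouse 8 (-2.17, adjusted p = 0.0271), without a filter (adjusted p = 0.00051) and with DESeq2 (adjusted p = 0.049).

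Iron and heme genes gave 2 higher of 9 tested, with a median of 0.26. Trfr2 (now Tfr2), the iron-sensing transferrin receptor of the hepatocyte, had 476, 696, 873 and 1096 CPM in N and 1621, 1342, 1629 and 1321 CPM in NW (0.91, SE 0.26). Slc39a14, the importer of zinc and of iron not bound to transferrin, had 238, 477, 344 and 415 CPM in N and 665, 714, 1142 and 626 CPM in NW (1.07, SE 0.31), and NW mouse 15 was far above the others. All NW mice were above all N mice in both. By edgeR the call was lost without N mouse 4 or 5 or NW mouse 11 or 15 (then adjusted p from 0.0559 to 0.105) for Trfr2 and without N mouse 4 or NW mouse 15 (then adjusted p from 0.106 to 0.123) for Slc39a14. Hamp, the iron hormone hepcidin, had 933 ± 793 CPM in N and 303 ± 164 CPM in NW and did not pass (-1.70, adjusted p = 0.262 by edgeR; -0.88 without N mouse 5). Slc39a7, a zinc transporter of the reticulum, rose (1.18, SE 0.34), with 104, 124, 199 and 133 CPM in N and 256, 221, 431 and 399.8 CPM in NW, and was lost by edgeR without N mouse 4 or 5 or NW mouse 15 (then adjusted p from 0.0559 to 0.0971).

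Of 41 tested genes in the plasma protein list (albumin, complement, coagulation factors and others) 0 passed by edgeR, with a median of 0.09. Igfals and Lcat, which also encode plasma proteins and did pass, were counted in other lists. Ttr, transthyretin, had 149, 172, 199 and 199 CPM in N and 375, 323, 318 and 348 CPM in NW, without overlap, but its log2 fold change of 0.92 (SE 0.37) did not pass (adjusted p = 0.101 by edgeR). Serpinc1, antithrombin, had 1682 ± 334 CPM in N and 984 ± 284 CPM in NW (-0.76, adjusted p = 0.0673 by edgeR). In the growth hormone axis 1 gene was higher and 1 lower of 4 tested. Beside Igfals, Igfbp4, a binding protein of insulin-like growth factors, had 848, 887, 913 and 997 CPM in N and 1553, 1427, 1592 and 2451 CPM in NW (0.94, SE 0.26). Its predicted tag also occurs in 35 other genes, so its count may not be its own, and the call was lost by edgeR without N mouse 4 or NW mouse 20 (then adjusted p = 0.0611). Only 4 clock genes were tested. Beside Nr1d1, which fell, the clock output factor Tef had 0.68 (SE 0.26) (adjusted p = 0.0851 by edgeR). Its sign was opposite to that of Nr1d1, and by edgeR it did not pass except without N mouse 7 (0.94, adjusted p = 0.0358) or N mouse 8 (0.86, adjusted p = 0.0377).

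Endoplasmic reticulum genes gave 2 higher and 1 lower of 13 tested, with a median of -0.11. While Kdelr1 fell, Sec61a1, the pore through which new proteins enter the reticulum, rose and had 223, 439, 331 and 515 CPM in N and 785, 858, 712 and 817 CPM in NW (1.07, SE 0.28). Herpud1, part of the machinery that removes misfolded proteins, had 312, 296, 622 and 548 CPM in N and 785, 1011, 1329 and 469 CPM in NW (1.03, SE 0.33), with NW mouse 20 inside the N range. Outside the list, Tram2, a partner of the pore, rose and had 89.3, 85.8, 92.6 and 83.1 CPM in N and 239, 263, 225 and 139 CPM in NW (1.31, SE 0.35). Each NW mouse was above each N mouse for Sec61a1 and Tram2. By edgeR the call was lost without N mouse 4 (then adjusted p = 0.0687) for Sec61a1, without N mouse 4 (then adjusted p = 0.0578) for Tram2 and without N mouse 4 or 5 or NW mouse 11, 12 or 15 (then adjusted p from 0.0547 to 0.165) for Herpud1. Of 12 vesicle traffic genes 1 was lower, Copa, a coat protein of vesicles that return to the reticulum, with 803, 715, 556 and 764 CPM in N and 358, 433, 206 and 278 CPM in NW (-1.11, SE 0.31), lost by edgeR without N mouse 4 or NW mouse 15 or 20 (then adjusted p from 0.06 to 0.0852). That list had a median of -0.39.

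Of 7 nuclear-encoded subunits of the respiratory chain 0 passed by edgeR, and of 7 carriers and citric acid cycle enzymes 1 did. Slc25a5, an adenine nucleotide carrier, had 476, 839, 1218 and 1213 CPM in N and 1536, 1639.9, 3595 and 2642 CPM in NW (1.32, SE 0.31), without overlap, and was lost by edgeR without NW mouse 15 (then adjusted p = 0.0522). Of 5 genes of the mitochondrial ribosome and translation 1 was lower, Mrps14. Lrpprc, which holds mitochondrial messenger RNA, fell and had 298, 181, 185 and 116 CPM in N and 34.1, 42.5, 56.2 and 86.9 CPM in NW (-1.85, SE 0.44), lost by edgeR without N mouse 4 (then adjusted p = 0.0522). Ak3, a nucleotide kinase of the mitochondrial matrix, rose and had 372, 410.0, 476 and 465 CPM in N and 955, 849.7, 955 and 661 CPM in NW (0.99, SE 0.26), lost by edgeR without N mouse 4 or NW mouse 15 (then adjusted p from 0.051 to 0.0583). Lars2, the mitochondrial leucyl-tRNA synthetase, had the highest mean count of these libraries, with 61701 ± 29459.8 CPM in N and 85929.9 ± 4640.1 CPM in NW (SD, n = 4). It did not pass (0.48, adjusted p = 0.274 by edgeR) except without N mouse 8 (0.93, adjusted p = 0.0197). Lars2 had 2562 to 10350 tags per library against 260 to 895 for Alb. Whether all of these tags came from the Lars2 transcript was not tested.

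Cytosolic translation factors and tRNA enzymes gave 2 higher of 10 tested, with a median of 0.28: Dus1l, and Eef1b2, an exchange factor of translation elongation (1.03, SE 0.31). The predicted tag of Eef1b2 occurs in 90 other genes, and its call was lost by edgeR without N mouse 4 or 5 or NW mouse 12 or 15 (then adjusted p from 0.0544 to 0.142). Of 5 cytosolic ribosomal proteins 0 passed. Chromatin and RNA processing gave 2 higher of 10, with a median of 0.47: Kdm4a, and Edc4, a scaffold of messenger RNA decapping, with 59.5, 57.2, 66.2 and 99.7 CPM in N and 239, 195, 187 and 191 CPM in NW (1.54, SE 0.40), lost by edgeR without N mouse 4 (then adjusted p = 0.054). Of 9 nuclear receptors and liver transcription factors 0 passed by edgeR, with a median of 0.33.

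Of 18 cytochromes P450 and their reductase 1 passed, although 13 had a positive value and the median was 0.49, against -0.03 over all tested genes. Cyp2d22 rose and had 417, 706, 794 and 797 CPM in N and 1399, 1393, 1535 and 1112 CPM in NW (1.00, SE 0.27), without overlap, lost by edgeR without N mouse 4 or NW mouse 15 (then adjusted p from 0.0544 to 0.0788). Its relative Cyp2d10 had 0.93 (SE 0.32) (adjusted p = 0.0527 by edgeR), which passed without N mouse 7 or 8 or NW mouse 12 (then adjusted p from 0.0173 to 0.0459), and Cyp2c29 had -1.21 (SE 0.49) in the other direction (adjusted p = 0.112 by edgeR). Of 21 conjugating, aldehyde and epoxide enzymes 1 was higher, the carboxylesterase Ces1c (1.06, SE 0.32), and 1 lower, the epoxide hydrolase Ephx1 (-1.48, SE 0.49). By edgeR the former was lost without N mouse 4 or NW mouse 11 or 15 (then adjusted p from 0.0643 to 0.128) and the latter without N mouse 4 or 5 or NW mouse 11, 12, 15 or 20 (then adjusted p from 0.0588 to 0.193).

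Lactate and basigin-linked transport, membrane receptors and syndecans gave 4 lower and 0 higher of 12 tested, with a median of -0.18. This list was drawn up with the decrease of Bsg known, so its count does not stand for itself. Its members past the threshold were Bsg, Paqr7, Ldha and Paqr9, a relative of Paqr7, with 1413, 839, 979 and 615 CPM in N and 580.1, 467, 431 and 399.8 CPM in NW (-1.03, SE 0.29), lost by edgeR without N mouse 4 or 7 or NW mouse 12, 15 or 20 (then adjusted p from 0.052 to 0.11). Sdc4, a syndecan of the cell surface and a very abundant transcript, had 29974 ± 7563 CPM in N and 23410.2 ± 2569.6 CPM in NW (SD, n = 4) and did not pass (-0.36, adjusted p = 0.372 by edgeR). Of 13 lysosome and autophagy genes 1 was higher, Grn, the lysosomal growth factor progranulin, with 342, 257, 516 and 365 CPM in N and 563, 679.7, 1292 and 765 CPM in NW (1.15, SE 0.29), lost by edgeR without NW mouse 15 (then adjusted p = 0.077). Pqlc2, a lysosomal exporter of basic amino acids, and its relative Pqlc1 also rose (1.06, SE 0.32 and 1.12, SE 0.29). By edgeR their calls were lost without N mouse 4 (then adjusted p = 0.0611) for Pqlc1 and without N mouse 4 or 5 or NW mouse 11 or 15 (then adjusted p from 0.0559 to 0.125) for Pqlc2. Smpd1, the lysosomal acid sphingomyelinase, fell and had 491, 219, 132 and 133 CPM in N and 17.1, 42.5, 37.4 and 69.5 CPM in NW (-2.50, SE 0.64), and Ctbs, a lysosomal glycosidase, fell as well (-1.89, SE 0.53). Smpd1 was lost by edgeR without N mouse 4 or NW mouse 12 or 15 (then adjusted p from 0.0518 to 0.0634) and Ctbs without N mouse 4 or 5 or NW mouse 12 or 15 (then adjusted p from 0.0504 to 0.114).

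**Figure D4:**
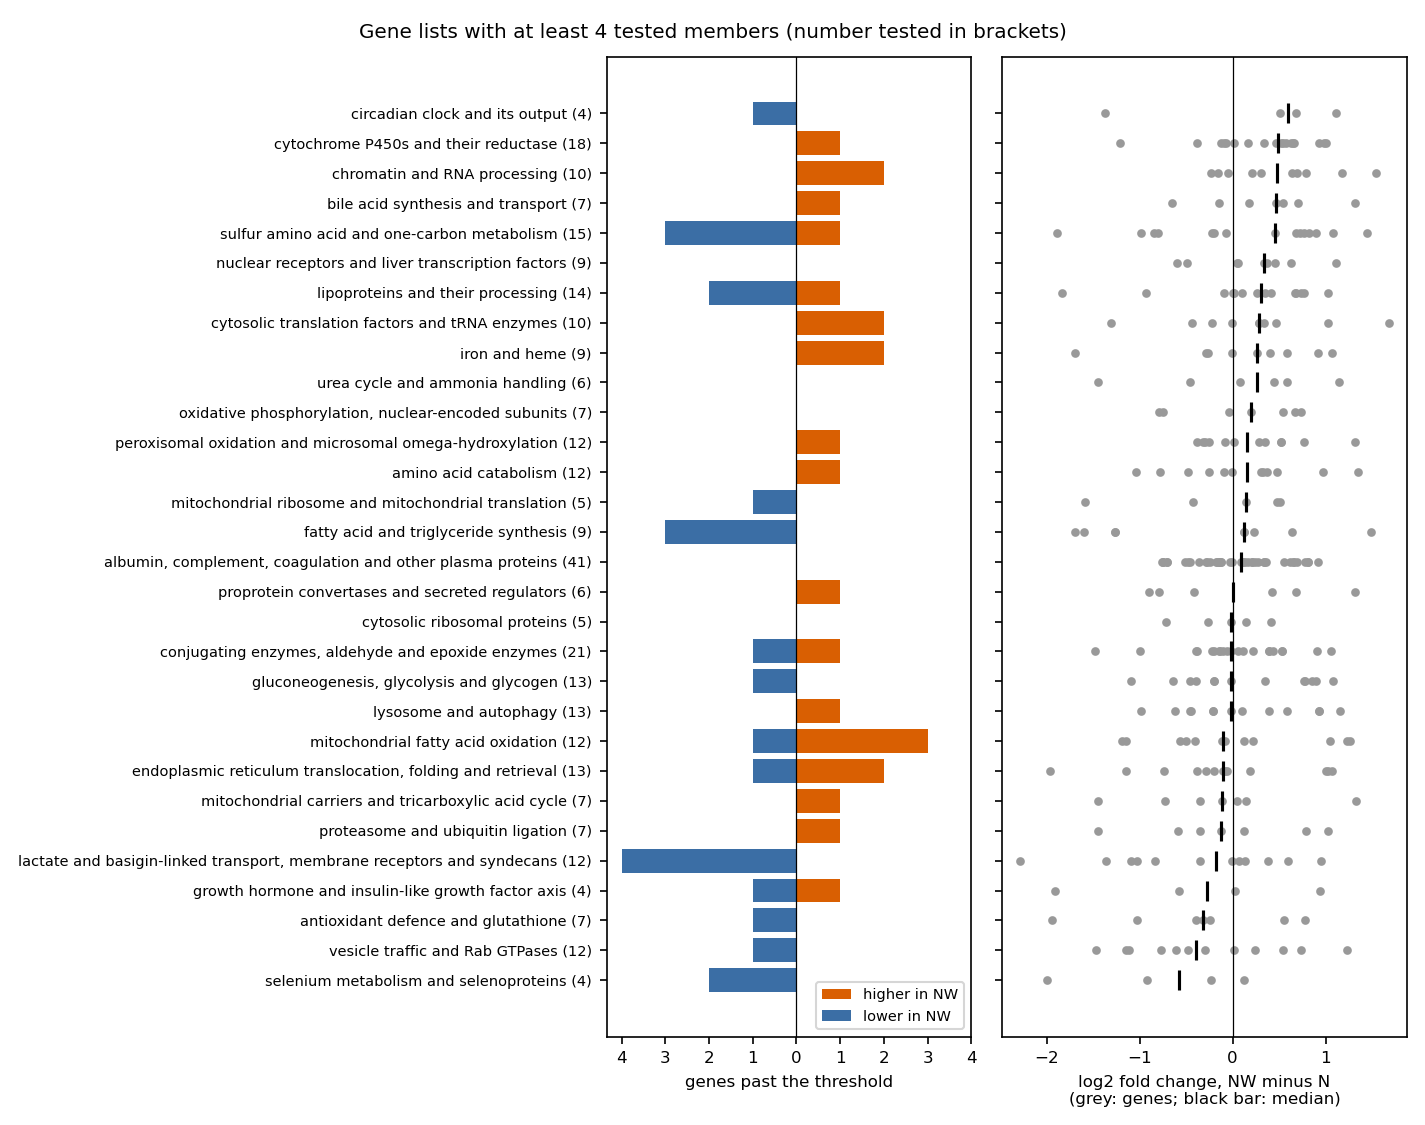
Left, number of genes past the threshold that were higher (orange, to the right) or lower (blue, to the left) in NW, for each gene list with at least 4 tested members, the number tested in brackets. Right, log2 fold change of each tested member (grey) and the median (black bar): in most lists members lie on both sides of 0, and 0 of the 41 genes in the plasma protein list passed.

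Further genes among the 115 were in no list, and the next ones, which act on lipids, were picked from them after their values were seen. Etnk2, an ethanolamine kinase of phospholipid synthesis, fell and had 4239, 2203, 1839.6 and 1445 CPM in N and 1126, 1266, 974 and 1060.3 CPM in NW (-1.13, SE 0.29), while Ptdss1, which makes phosphatidylserine, rose and had 134, 305, 344 and 233 CPM in N and 495, 476, 618 and 539 CPM in NW (1.03, SE 0.31). The groups did not overlap in either. Sgpp1, a sphingosine phosphate phosphatase, fell (-1.13, SE 0.31), and St3gal5, a ganglioside synthase, rose (1.45, SE 0.45). Ttpa, the vitamin E transfer protein, had 3287, 1402, 2607 and 2126 CPM in N and 921, 901, 1011 and 1477 CPM in NW (-1.13, SE 0.32), with N mouse 5 inside the NW range. By edgeR the call was lost without N mouse 4 or NW mouse 15 (then adjusted p from 0.0522 to 0.107) for Etnk2, without N mouse 4 or NW mouse 15 (then adjusted p from 0.0852 to 0.128) for Ptdss1, without N mouse 4 or NW mouse 12 or 15 (then adjusted p from 0.0731 to 0.105) for Sgpp1, without N mouse 4, 5 or 7 or NW mouse 12 or 15 (then adjusted p from 0.0643 to 0.13) for St3gal5 and without N mouse 4 or 7 or NW mouse 11, 12 or 15 (then adjusted p from 0.0536 to 0.0917) for Ttpa. In all, 70 of the 115 genes were in no list, 16 higher and 54 lower.

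The largest fold changes were in genes with few tags, where 1 tag matters. Reep6, which shapes the endoplasmic reticulum, had 2588, 896, 939.7 and 515 CPM in N and 188, 187, 206 and 17.4 CPM in NW (-3.00, SE 0.78), and without NW mouse 20, which had a single tag, the log2 fold change was -2.60. Csda (now Ybx3), a cold-shock RNA-binding protein, had 193, 57.2, 79.4 and 33.2 CPM in N and 17.1, 8.50, 0 and 17.4 CPM in NW (-2.93, SE 0.79), and Fbxl14, a subunit of ubiquitin ligases, had 327, 105, 79.4 and 49.8 CPM in N and 34.1, 8.50, 18.7 and 17.4 CPM in NW (-2.87, SE 0.68). Dnajc15, a mitochondrial co-chaperone, had 491, 124, 106 and 16.6 CPM in N and 0, 51.0, 18.7 and 52.1 CPM in NW (-2.38, SE 0.76), where N mouse 8 lay among the NW mice. Zbtb16, a transcription factor, had the largest increase, with 14.9, 28.6, 52.9 and 33.2 CPM in N and 85.3, 272, 337 and 17.4 CPM in NW (2.45, SE 0.63). NW mouse 20 was below N mice 5, 7 and 8, so this increase was not shared by all treated mice. By edgeR the calls were lost without N mouse 4 or NW mouse 11, 12, 15 or 20 (then adjusted p from 0.0567 to 0.125) for Reep6, without N mouse 4 or NW mouse 12 or 15 (then adjusted p from 0.0534 to 0.105) for Csda, without N mouse 4 or NW mouse 12 (then adjusted p from 0.0502 to 0.0665) for Fbxl14, without N mouse 4, 5 or 7 or NW mouse 11, 12, 15 or 20 (then adjusted p from 0.0536 to 0.253) for Dnajc15 and without N mouse 4 or NW mouse 12 or 15 (then adjusted p from 0.0544 to 0.0639) for Zbtb16. With N mouse 4 left out, Reep6 had -2.36, Csda -2.32, Fbxl14 -2.12 and Dnajc15 -1.35 on the log2 scale.

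Markers of other liver cells bear on these results because whole liver was used, in which fewer cells of a type and less RNA per cell cannot be told apart. Markers of Kupffer cells (3 tested), stellate cells (5), sinusoidal endothelium (2) and cholangiocytes (2) gave 0 calls by edgeR. Kupffer cell markers, 15 of 23 with tags, summed to 887 to 1138 CPM in N and 648 to 1096 CPM in NW. Within that sum Vsig4, a Kupffer cell receptor with too few tags to be tested, had 104, 114, 66.2 and 33.2 CPM in N and 0, 0, 0 and 52.1 CPM in NW, while Tyrobp had 14 tags in N and 5 in NW and Clec4f 10 and 5. Csf1r, also not tested, had 40 tags in N and 29 in NW. Among untested markers that went the other way were Laptm5 (2 and 4) and Cd163 (0 and 2). The 3 tested Kupffer cell markers did not all share the decrease. Their median log2 fold change was 0.12, with 2 positive and 1 negative. Stellate cell markers, 13 of 21 with tags, summed to 1429 to 1688 CPM in N and 1262 to 1966 CPM in NW. Endothelial markers, 20 of 20 with tags, summed to 698 to 1235 CPM in N and 939 to 1161 CPM in NW. Cldn3, a tight junction protein of bile ducts and hepatocytes, fell and had 134, 57.2, 212 and 33.2 CPM in N and 34.1, 17.0, 18.7 and 0 CPM in NW (-2.54, SE 0.66), lost by edgeR without N mouse 7 or NW mouse 12 (then adjusted p from 0.0504 to 0.0746), and without N mouse 7 it was -1.94. Beside it, cholangiocyte markers (8 of 14 with tags) summed to 1443 to 2886 CPM in N and 556 to 1211 CPM in NW, with Krt7, Krt19 and Cftr at 0 tags. Most of that sum was Tm4sf4, which hepatocytes also express and which did not pass (1673 ± 635 CPM in N and 745 ± 254 CPM in NW, -1.16, adjusted p = 0.059 by edgeR) except without a filter (adjusted p = 0.00816) or with DESeq2 (adjusted p = 0.0418), and its part in the result for Cldn3 was not tested. Of the 21 tested hepatocyte markers 1 was higher, Tdo2, and the median was 0.36. Periportal markers gave 1 call of 11, Apof, and pericentral markers 0 of 8.

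The same extract on the high-fat diet gave a set of values from other mice. These groups also differed in depth, with 118882 ± 23746 tags in named genes in HF and 75749 ± 21588 in HFW (SD, n = 4). On that diet 103 genes passed, which is 9.85% of those tested, 44 higher (4.21%) and 59 lower (5.64%). With all libraries thinned to 56655 tags 89 of 794 tested genes passed there by edgeR. The 2 comparisons share no library, and 48 genes passed in both in the same direction, 15 higher and 33 lower, and 0 in opposite directions. That is 41.7% of the genes called on the normal diet and 46.6% of those called on the high-fat diet. Of the 115 genes 111 had the same sign on both diets, against 75.6% of all tested genes. The log2 fold changes had a Spearman rho of 0.73 and a Pearson r of 0.76 across the 1046 genes, which were fitted together and are not independent. The size was smaller on the high-fat diet for genes chosen by their change on the normal diet: a median of 0.83 against 1.15 for the 38 that rose, and -0.90 against -1.39 for the 77 that fell. In 47 of the 115 genes the values did not overlap on either diet (16 higher, 31 lower), against 57 of all 1046. The 115 were chosen by a test on the normal-diet values, so the part of this count from that diet does not stand for itself.

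Of the core of 25 genes all had the same sign on the high-fat diet and 17 passed there. Bsg had 3337, 2585, 3382 and 2102 CPM in HF mice 23, 25, 28 and 29 and 1079, 1171, 838 and 808 CPM in HFW mice 34, 36, 38 and 40, with HF and HFW apart (-1.55). Dus1l had 200.0, 188, 73.7 and 229 CPM in HF mice 23, 25, 28 and 29 and 487, 472, 484 and 676 CPM in HFW mice 34, 36, 38 and 40, again without overlap (1.63). Kdelr1 had 3558, 2703, 1662 and 1856 CPM in HF mice 23, 25, 28 and 29 and 824, 542, 596 and 376 CPM in HFW mice 34, 36, 38 and 40 (-2.06), with HF mouse 23 above even N mouse 4. Values close to those of the normal diet were also seen for Igfals (-1.77 against -1.91), Sephs2 (-2.01 against -2.00), Cmtm4 (-1.85 against -1.88) and Nipsnap3b (-1.68 against -1.62). The 8 core genes that did not pass on the high-fat diet were Acadvl (-0.62, adjusted p = 0.102), Acly (-0.74, adjusted p = 0.161), Apol7a (-0.59, adjusted p = 0.104), Nr1d1 (-0.53, adjusted p = 0.29), Paqr7 (-0.62, adjusted p = 0.112), Ptprf (-0.55, adjusted p = 0.182), Tex2 (-0.48, adjusted p = 0.242) and Tsku (0.62, adjusted p = 0.165), all by edgeR.

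**Figure D5:**
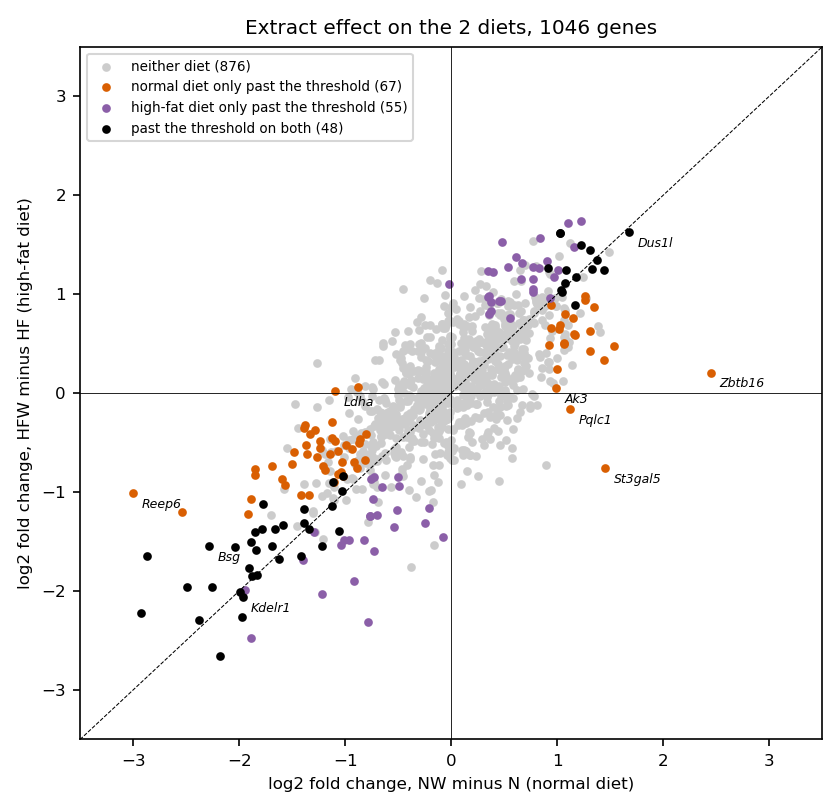
Log2 fold change with the extract on the normal diet (x axis) and on the high-fat diet (y axis) for 1046 genes, the dashed line marking equal values. The 48 genes past the threshold on both diets (black) lie in the lower left and upper right, 67 passed only on the normal diet (orange) and 55 only on the high-fat diet (purple).

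A gene past the threshold on 1 diet alone is not thereby shown to differ between the diets, so the difference itself was tested. By edgeR 0 genes passed that test (smallest adjusted p = 0.998), with 26 genes at an unadjusted p under 0.05, or 2.49%, and 0 passed with the DESeq2 Wald test or limma-voom. The 5 genes with the smallest p in each direction are given as values, with Ak3 as the next one. St3gal5 had 59.5, 47.7, 39.7 and 66.4 CPM in N and 102, 153, 225 and 104 CPM in NW on the normal diet, all NW mice above all N mice, and 122 ± 29.7 CPM in HF and 71.4 ± 30.2 CPM in HFW (SD, n = 4). Its difference between the diets, high-fat minus normal, was -2.21 (SE 0.61, unadjusted p = 0.00102). Pqlc1 had 179, 219, 278 and 183 CPM in N and 512, 357, 524 and 521 CPM in NW, and 286 ± 49.4 CPM in HF and 252 ± 71.5 CPM in HFW, with a difference of -1.28 (SE 0.41, unadjusted p = 0.00367). Strbp, an RNA-binding protein, had 74.4, 57.2, 106 and 83.1 CPM in N and 136, 136, 131 and 191 CPM in NW, without overlap, and 155 ± 54.8 CPM in HF and 93.7 ± 36.3 CPM in HFW, a difference of -1.62 (SE 0.56, unadjusted p = 0.00721). Ralgapb, a subunit of an activator of Ral GTPase hydrolysis, had 189 ± 11.8 CPM in N, 253 ± 109 CPM in NW, 202 ± 16.6 CPM in HF and 108 ± 21.6 CPM in HFW, a difference of -1.34 (SE 0.47, unadjusted p = 0.00727). Strbp and Ralgapb were not past the threshold in NW minus N (adjusted p = 0.149 and 0.375 by edgeR). Zbtb16 had 86.2 ± 44.8 CPM in HF and 101 ± 44.7 CPM in HFW, a difference of -2.25 (SE 0.84, unadjusted p = 0.012). Ak3 rose in NW but had 446 ± 80.6 CPM in HF and 461 ± 79.1 CPM in HFW, a difference of -0.94 (SE 0.36, unadjusted p = 0.0139). Among genes that fell on the normal diet Ldha had 449 ± 188 CPM in HF and 454 ± 136 CPM in HFW, a difference of 1.12 (SE 0.48, unadjusted p = 0.0254). Anapc5, a subunit of the anaphase-promoting complex, had 448 ± 12.1 CPM in N and 241 ± 42.6 CPM in NW on the normal diet and 491 ± 94.0 CPM in HF and 519 ± 96.5 CPM in HFW, with a difference of 0.94 (SE 0.37, unadjusted p = 0.0168). Positive differences were also seen for Dsp, a desmosome protein (1.04, SE 0.44, unadjusted p = 0.0242), Pvrl3 (now Nectin3), an adhesion protein (1.56, SE 0.69, unadjusted p = 0.0307), and Dpp3, a peptidase (1.13, SE 0.50, unadjusted p = 0.0311), which were not past the threshold in NW minus N. None of these differences passed after adjustment, so they remain values. Without N mouse 4 or another of the 8 mice the count of this test was also 0.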

How the data were processed

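Total liver RNA of each mouse was made into a SuperSAGE library with an oligo-dT primer, NlaIII and EcoP15I, per the labels' protocols. The values deposited by the authors are raw counts of tags for each RefSeq transcript and mouse, per the file headers. The sources used here do not give the matching of tags, the RefSeq release, the genome build or the treatment of shared tags. No batch is named in the labels and no molecular identifiers are, so PCR copies count as tags and depth limits cover counting error only.

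The 416 rows without a gene symbol (0.0729% of all tags) were left out, 25 symbols that had become dates were restored from their gene IDs, and counts were summed per symbol. Replicate libraries were compared for duplicates by chi-square and differed by more than counting noise in every pair (2.24 to 9.64 per degree of freedom). In R 4.3.3 with edgeR 4.0.16, all 16 libraries were fitted with a mean per group (TMM scaling, default filter with a minimum count of 10, robust quasi-likelihood F test, Benjamini-Hochberg adjustment over 1046 genes, threshold 0.05). The biological coefficient of variation was 0.279. Standard errors (SE) are approximate, obtained from the log2 fold change and its F. CPM use all named tags and log2 CPM a prior count of 2. For NW minus N, 5 simulations were run with 200 changed genes among the 1046. The fit recovered 7.16% of the 1.5-fold changes, 36.4% of the 2-fold ones and 87.0% of the 4-fold ones, with 5.87% false calls. Whether these rates hold in a group with a mouse that lies apart, as N mouse 4 does, was not tested.

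Members, gene lists and tests were chosen with earlier results of these data known. Genes named are those past the threshold in NW minus N, up to 3 further members of a list with the smallest p, those above 1% of tags, and the 5 each way with the smallest p in the difference between the diets; some genes under this rule are not reported here. Tags were predicted from GENCODE M21. Alternatives were DESeq2 1.42.0 size factors and Wald test, limma-voom (limma 3.58.1), no filter, a minimum count of 20, the 8 libraries alone, a non-robust fit, RefSeq rows, thinned libraries, each of the 8 mice left out, and N mice 4 and 8 left out.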

Additional observations from a re-analysis of the deposited data

Results flagged for a closer look

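In 25 of 302 groups of 4 mice 1 mouse lay apart from the other 3 by more than the limit of Dixon's test at 95%. Chance alone flags about 1 in 20 groups, or 15.1 of 302. Of the 25, 10 were N mouse 4, each time the highest of the controls. It had 4388 CPM of Bsg, 3332 CPM of Igfals, 7482 CPM of Lcat, 20097 CPM of Fam134a, 907 CPM of Hadh, 982 CPM of 2210411K11Rik, 937 CPM of Chmp4b, 1726 CPM of Ebpl, 164 CPM of Samd9l and 1398 CPM of Zcchc17. All of these are genes that fell in NW, except Hadh, which missed the threshold. N mouse 7 had 768 CPM of Tmem176a, above the other controls.

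NW mouse 20 was the low mouse for Lcat (521 CPM), Reep6 (17.4 CPM) and Tm4sf4 (365 CPM), and the high mouse for Igfbp4 (2451 CPM), Slc38a4 (31497 CPM), Srebf1 (1982 CPM) and Strbp (191 CPM). NW mouse 12 was low for Pqlc1 (357 CPM) and high for Slc10a1 (901 CPM), and its library was the largest of the group, with 120143 tags. NW mouse 15 had 1142 CPM of Slc39a14, above the other treated mice, and 0 CPM of Tmem9b. NW mouse 11 was high for Edc4 (239 CPM).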

How the results depend on the processing

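The count of 115 genes for the extract on the normal diet ranged from 31 to 178 when each of the 8 mice was left out in turn. It was 31 without N mouse 4, 47 without NW mouse 15 and 178 without N mouse 8. It was 38 (6 higher, 32 lower) without N mice 4 and 8 together and 70 (12 higher, 58 lower) without a filter, where 10171 genes share the adjustment and 57 of the 115 remained. DESeq2 size factors, the DESeq2 Wald test, limma-voom, a minimum count of 20, the 8 libraries alone, a non-robust fit, RefSeq rows and thinned libraries gave 90 to 124. Of the 115 genes 105 passed with the DESeq2 Wald test (1 had no adjusted p) and 88 with limma-voom. The count for the high-fat diet, 103, ranged from 93 to 142 with 1 normal-diet mouse left out and was 156 without N mice 4 and 8, although neither mouse is in that contrast. There 1359 genes were tested in place of 1046, and the cause was not tested. The difference between the diets gave 0 genes in all settings run, with 11 to 304 at an unadjusted p under 0.05, and from 0 to 0 with each mouse left out. Of 2577 values of single genes under these alternatives 0 reversed, 1947 kept their side of the threshold, 557 no longer passed and 73 newly passed. No paired analysis was possible because the mice of the 2 groups carry different numbers. In the simulations the fit found 7.16% of 1.5-fold and 36.4% of 2-fold changes, so most changes of these sizes were missed. At 1 tag per 8.32 to 17.3 CPM, 1046 genes had enough tags to be tested.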
